A study of Mus musculus with 8 samples.

Results

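A set of 34 mouse genes of the T and natural killer (NK) cell lineage were followed in forepaw skin lacking keratin 16. They were taken as the rows of the deposited array table whose probe annotation names a listed gene, with control probe sets left out, and 31 of 34 were measured by a probe set of a single gene, out of 30701 genes so measured. The probe set of Cd27, a costimulatory receptor of the tumour necrosis factor receptor family, also carries a microRNA gene and was not named, and the kinase gene Lck and the transcription factor gene Tcf7 were not analysed here. The study compared 4 Krt16 null mice, in which the Krt16 coding sequence was exchanged for bacterial LacZ in every cell of the body, with 4 wild-type (WT) littermates. Each genotype had 2 males and 2 females, all of them C57Bl/6 mice 8 weeks old and untreated. All null samples carry the label lesion and all WT samples the label normal, which means that effects of genotype and of lesion cannot be told apart. Each array held the RNA of 1 mouse, which is the replicate.

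T cells recognise antigen through a receptor whose CD3 chains carry the signalling tails. The coreceptors CD4 and CD8 bring the kinase LCK to those tails, ZAP70 docks on them, and the adaptor LAT passes the signal on. NK cells lack that receptor and act through activating and inhibitory lectin-like receptors, killing with perforin and granzymes, as cytotoxic T cells do. Mouse epidermis holds resident gamma-delta T cells, and the dermis holds alpha-beta T cells, gamma-delta T cells and innate lymphoid cells. Several of the listed genes are not restricted to lymphocytes: Rora and Bcl11b are also expressed in keratinocytes, and Thy1 in fibroblasts and neurons.

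The signal of most T and NK lineage genes stayed at or under that of the array's negative control probe sets, while Il7r rose and Rora fell in null skin well beyond the spread between mice. Signals are RMA values on the log2 scale, and differences are null minus WT from limma with sex as a covariate, each with its standard error (SE). Calls were made where the p-value, adjusted by Benjamini-Hochberg over all 30701 genes, was under 0.05. Of the 31 measured genes, 3 were called higher (Il7r, Bcl11b and Cd3g), 2 lower (Rora and Txk) and 26 neither way. That is 16.1% of the 31, beside 13.0% of all genes (7.06% higher and 5.98% lower). The median difference was 0.05 over the 31 genes and 0.01 over all genes, and 28 of 31 differed by less than 0.3 (90.3%, against 88.6% of all genes). In bulk tissue, fewer cells of a type and less RNA per cell cannot be told apart.

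Among the 5 called genes, Il7r, Rora and Bcl11b, gave signals above the negative control median on every array. RefSeq promoter windows (GRCm38.p6) were on hand for 25 of the 34 genes, and the 250 bases before the listed start of these 3 genes are shown here. Whether these windows control the measured transcripts was not tested. Capitals mark matches, on either strand, to any of 5 short motifs: AGGAAG for Ets factors, TGTGGT for Runx factors, TGANTCA for AP-1, TTCNNNGAA for STAT factors and AGGTCA for ROR factors, a family that includes the Rora product. No match overlaps another.
Il7r, chr15:9529877-9530126, minus strand: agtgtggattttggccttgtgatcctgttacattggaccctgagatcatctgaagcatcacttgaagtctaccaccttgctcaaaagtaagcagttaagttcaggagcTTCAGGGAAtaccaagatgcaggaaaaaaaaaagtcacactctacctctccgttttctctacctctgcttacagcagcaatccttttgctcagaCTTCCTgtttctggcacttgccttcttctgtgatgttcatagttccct
Rora, chr9:68653536-68653785, plus strand: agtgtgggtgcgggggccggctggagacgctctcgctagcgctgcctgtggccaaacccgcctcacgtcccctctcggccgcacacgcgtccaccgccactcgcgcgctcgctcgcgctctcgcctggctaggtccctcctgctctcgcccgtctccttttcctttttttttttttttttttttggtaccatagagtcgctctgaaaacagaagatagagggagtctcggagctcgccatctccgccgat
Bcl11b, chr12:108003415-108003664, minus strand: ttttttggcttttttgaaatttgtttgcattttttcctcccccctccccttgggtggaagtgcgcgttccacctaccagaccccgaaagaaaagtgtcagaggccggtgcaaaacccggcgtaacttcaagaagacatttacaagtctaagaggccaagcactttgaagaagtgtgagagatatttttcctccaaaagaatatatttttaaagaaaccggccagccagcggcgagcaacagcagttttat
The Il7r window held 2 matches, a STAT match beginning 142 bases before the start and an Ets match beginning 48 bases before it, read on the opposite strand. The Rora and Bcl11b windows held 0 of the 5 motifs in these letters. Over 32851 promoter windows of the same length, 29.5% held the Ets motif, 14% the Runx motif, 6.75% the AP-1 motif, 7.02% the STAT motif and 14% the ROR motif. G and C made up 44% of the Il7r window, 61.2% of the Rora window and 44.8% of the Bcl11b window, with a median of 52.4% over all windows. The matches describe the sequence and were not set against the expression changes by any test.

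Negative control medians ran from 4.26 to 4.46 over the 8 arrays, and their 95th percentiles from 7.26 to 7.43. In all, 9 of the 31 genes lay above the median of their own array on all 8 arrays (29.0%, against 53.2% of all genes): Cd8b1, Cd5, Thy1, Lat, Bcl11b, Rora, Tbx21, Il7r and Nkg7. A further 16 lay above it on no array, among them Cd3d, Cd3g, Cd4, Cd8a, Cd2, Gzma, Gzmb, Prf1, Klrk1 and Klrd1. The other 6, Cd3e, Cd247, Cd6, Zap70, Ubash3a and Il2rb, crossed it on some arrays. With the 95th percentile as the limit, 2 genes, Rora and Bcl11b, were above it on every array and 29 on none. Most of all measured genes did not lie above this limit on all 8 arrays either, so missing it was not particular to the list. Signals under the controls leave the size of a difference inexact, and RMA compresses large ratios. Probe sets differ in affinity, so the order of genes by signal is not an order of transcript amounts.

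**Figure D1:**
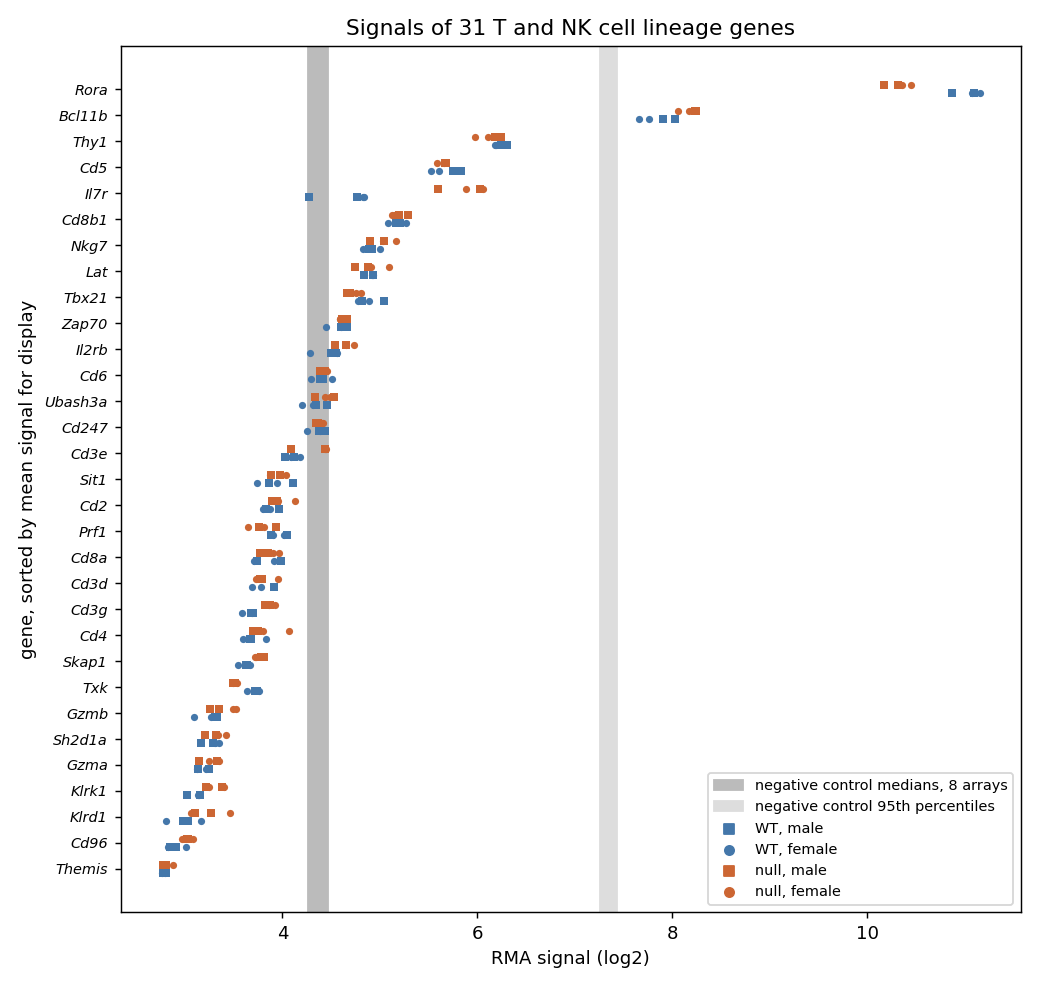
RMA signal (log2, horizontal axis) of the 31 measured T and NK lineage genes on 8 arrays, with genes sorted for display, WT in blue and null in orange, males as squares and females as circles. The dark band spans the negative control medians of the arrays (4.26 to 4.46) and the light band their 95th percentiles (7.26 to 7.43): most genes lie left of or on the dark band, and only Rora and Bcl11b lie right of the light one.

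Keratinocyte and skeletal muscle genes gave strong signals in both genotypes. The mean of 10 keratinocyte genes was 10.61 to 10.82 in WT and 10.72 to 10.80 in null arrays, while 16 skeletal muscle genes averaged 8.97 to 9.77 in WT and 8.16 to 8.75 in null arrays, with 14 of 16 called lower. Krt16 itself gave 8.35 ± 1.07 (SD, n = 4) in WT and 6.90 ± 0.07 (n = 4) in null skin, without overlap of the arrays (limma difference -1.45, SE 0.44, adjusted p = 0.0615). Female WT 1, at 7.05, lay next to the null arrays, of which the lowest gave 6.83, while the other WT arrays gave 8.20 to 9.66. The probe positions of that probe set were not used here. A fit with the muscle mean as a covariate was run as an alternative. The muscle mean itself separated the genotypes and predicts, together with sex, 73.4% of the variation in genotype, so this fit cannot tell the part of muscle from that of genotype, and a call lost in it does not show a smaller change. With it the count over all genes went to 191 higher and 77 lower, from 2168 and 1837.

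Il7r (gene ID 16197) encodes the interleukin-7 receptor alpha chain, which T cells and innate lymphoid cells use for survival and which also forms part of the receptor for thymic stromal lymphopoietin. Its signal was 4.28 and 4.76 in the WT males and 4.84 and 4.83 in the WT females. The null males gave 6.02 and 5.60 and the null females 6.06 and 5.88. Every null array lay above every WT array, and male WT 1 was the lowest, hardly above its own control median of 4.26. The means were 4.68 ± 0.27 in WT and 5.89 ± 0.21 in null skin (SD, n = 4 mice each). The limma difference was 1.21 (SE 0.12, 95% interval 0.93 to 1.49, adjusted p = 0.000543), a 2.32-fold ratio on this scale. It was 1.29 in males and 1.14 in females. Leaving out any 1 array kept it between 1.10 and 1.29 and called. With the muscle covariate it was 1.27 with an SE of 0.24 and was not called (adjusted p = 0.0567).

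Il2rb, which encodes the beta chain shared by the interleukin-2 and interleukin-15 receptors, was the other cytokine receptor of the list. WT males gave 4.55 and 4.50 and WT females 4.56 and 4.29. Null males gave 4.54 and 4.65 and null females 4.73 and 4.65. The genotypes overlapped, with female WT 2 lowest and female null 1 highest, and the limma difference of 0.17 (SE 0.08, 95% interval -0.01 to 0.35) was not called (adjusted p = 0.203).

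Rora (gene ID 19883) encodes the nuclear receptor ROR-alpha, which group 2 innate lymphoid cells and some T helper cells need and which is active in skin epithelium. WT males gave 10.87 and 11.10 and WT females 11.08 and 11.15. Null males gave 10.31 and 10.17 and null females 10.36 and 10.45. The highest null array stayed below the lowest WT array, and the means went from 11.05 ± 0.13 to 10.32 ± 0.12 (SD, n = 4 each). The limma difference was -0.73 (SE 0.07, 95% interval -0.88 to -0.57, adjusted p = 0.000351), and null skin held 0.605 of the WT signal on this scale. Males showed -0.74 and females -0.71. Rora stayed called under every alternative run, the muscle covariate included (-0.77, SE 0.14, adjusted p = 0.0455).

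Rora was the sole gene of the list with several probe sets. The brightest of 3 stands for it above, and the array design lists that one and the dimmest as transcripts without a genome position. In a fit over all 65956 non-control probe sets, which was added after the values were seen, the 3 sets fell by 0.73, 0.39 and 0.29 (limma adjusted p = 0.000316, 0.00753 and 0.025). Their WT means were 11.05, 8.32 and 5.73, and null and WT arrays overlapped in none of them. The fall thus had 1 direction and sizes that differed between sets.

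Bcl11b encodes a zinc finger repressor that commits precursors to the T cell lineage and also acts in epidermal development. WT males gave 8.03 and 7.91 and WT females 7.76 and 7.66, against 8.24 and 8.23 in null males and 8.06 and 8.18 in null females. The genotypes did not overlap, although the lowest null array (8.06) and the highest WT array (8.03) lay close. The limma difference was 0.34 (SE 0.06, 95% interval 0.20 to 0.48, adjusted p = 0.00799). In the fit of each sex it was 0.27 in males (not called, adjusted p = 0.154) and 0.41 in females (adjusted p = 0.0461), while the sexes themselves were not shown to differ (difference -0.15, 95% interval -0.42 to 0.13). With the muscle covariate it was 0.41 with an SE of 0.12, not called (adjusted p = 0.151). Tbx21, which encodes T-bet, the transcription factor of type 1 T helper and NK cells, gave 5.04 and 4.81 in WT males and 4.89 and 4.78 in WT females. Null males gave 4.69 and 4.67 and null females 4.81 and 4.75. The genotypes overlapped in the females, and the limma difference of -0.15 (SE 0.07, 95% interval -0.32 to 0.01) was not called (adjusted p = 0.229).

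**Figure D2:**
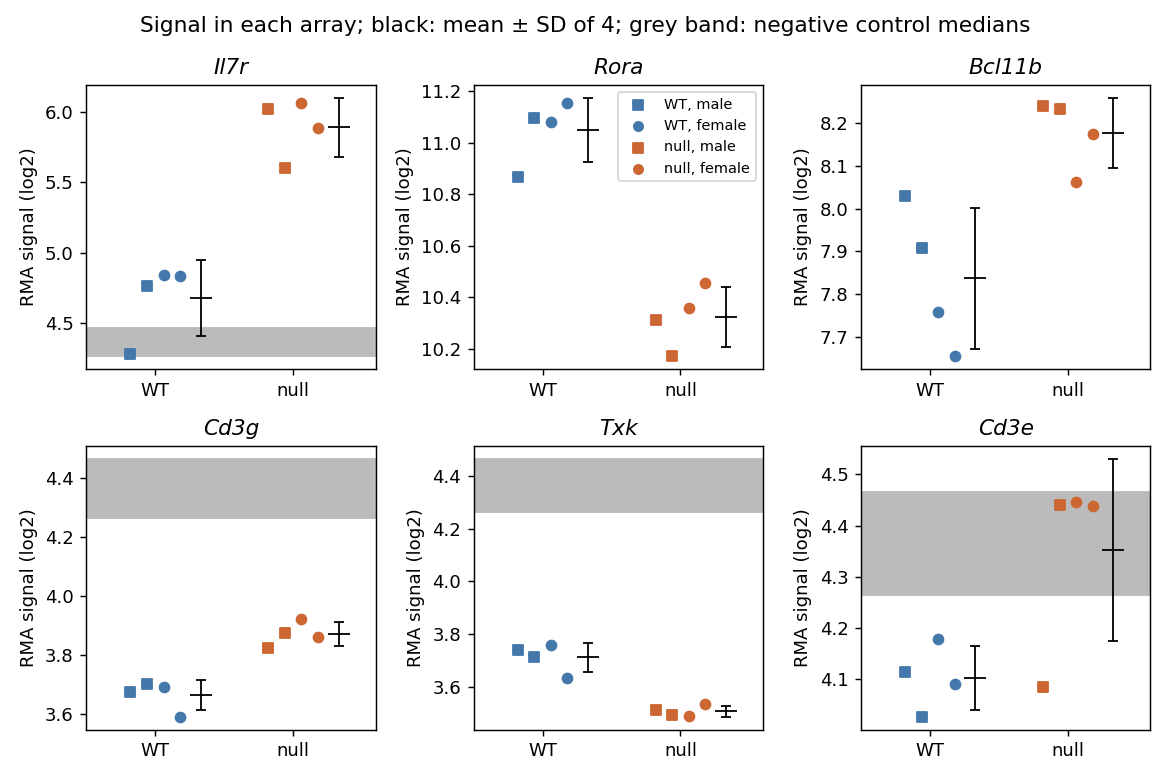
RMA signal (log2, vertical axes that do not start at 0) of Il7r, Rora, Bcl11b, Cd3g, Txk and Cd3e on each array, males as squares and females as circles, with mean ± SD of 4 mice in black and the negative control medians as a grey band. Null and WT arrays do not overlap in the first 5 genes, Cd3g and Txk lie under the band on every array, and in Cd3e male null 1 lies among the WT arrays.

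Of the 4 genes of the CD3 complex, 1 was called higher and 0 lower (25%, against 13.0% of all genes), with a median difference of 0.11. Cd3g, the gamma chain gene, was the called one: WT males gave 3.68 and 3.70 and WT females 3.69 and 3.59, and null males gave 3.82 and 3.87 and null females 3.92 and 3.86. All 8 values lay under the negative control medians, and the genotypes did not overlap. The limma difference was 0.20 (SE 0.05, 95% interval 0.08 to 0.33, adjusted p = 0.0387). Its call did not survive same-numbered mice of a sex as pairs (replicate block, adjusted p = 0.0537), the loss of any array other than male null 1 (adjusted p 0.059 to 0.116), or the muscle covariate (0.21, SE 0.12, adjusted p = 0.513).

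Cd3e, the epsilon chain gene, differed by as much but was not called. WT males gave 4.12 and 4.03 and WT females 4.18 and 4.09. The null arrays gave 4.44 (male null 2), 4.45 (female null 1) and 4.44 (female null 2), and male null 1 gave 4.09, inside the WT range. The limma difference was 0.25 (SE 0.08, 95% interval 0.07 to 0.43, adjusted p = 0.0791), and without male null 1 it was 0.33 and called (adjusted p = 0.0119). Leaving out any other array gave no call (limma adjusted p 0.115 to 0.22), and without male null 2 the difference was 0.19.

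Cd3d, the delta chain gene, gave 3.91 and 3.92 in WT males, 3.78 and 3.69 in WT females, 3.78 and 3.79 in null males and 3.95 and 3.73 in null females. Both null males lay under both WT males, the females overlapped, and over all 8 arrays the limma difference was -0.01 (95% interval -0.18 to 0.15, adjusted p = 0.937). Cd247, which encodes the zeta chain, gave 4.44 and 4.38 in WT males, 4.39 and 4.25 in WT females, 4.35 and 4.36 in null males and 4.42 and 4.40 in null females. All of them lay close to the control medians, and the limma difference was 0.02 (95% interval -0.12 to 0.15, adjusted p = 0.903). In the RefSeq gene order Cd3g, Cd3d and Cd3e are direct neighbours, with 0 genes between them.

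Among the 8 measured coreceptor and surface receptor genes, 0 were called by limma, where 13.0% of all genes were. An unadjusted p under 0.05 was found in 0 of them, against 8158 of all 30701 genes. The differences ran from -0.10 for Thy1 to 0.13 for Cd4. Cd4, the helper cell coreceptor gene, which macrophages can also express, gave 3.67 and 3.68 in WT males, 3.83 and 3.60 in WT females, 3.70 and 3.75 in null males and 4.06 and 3.80 in null females. Female null 1 stood above the rest, and the other null values overlapped the WT range (limma 95% interval -0.05 to 0.31, adjusted p = 0.343). Cd96, an inhibitory receptor gene of NK and T cells, gave 2.85 and 2.90 in WT males, 3.01 and 2.83 in WT females, 3.03 and 3.03 in null males and 3.08 and 2.97 in null females. Female WT 1 lay among the null arrays (limma difference 0.13, 95% interval -0.0005 to 0.25, adjusted p = 0.19).

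The subunit genes of CD8, Cd8a and Cd8b1, are neighbours in the genome and gave differences of 0.03 and 0.01. Their 95% intervals were -0.15 to 0.21 and -0.13 to 0.15. Cd2, an adhesion receptor gene, differed by 0.12 (adjusted p = 0.341). Cd5 and Cd6, genes of scavenger-type receptors that tune the antigen receptor, differed by -0.03 and 0.03. Thy1, the gene of the surface glycoprotein of mouse T cells, gave 5.98 to 6.31 over all 8 arrays, the brightest of these receptors' signals, and was not called (limma adjusted p = 0.273).

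Of the 8 measured genes of proximal signalling, 1 was called lower and 0 higher (12.5%, against 13.0% of all genes). Txk, a TEC family kinase gene, gave 3.74 and 3.71 in WT males and 3.76 and 3.64 in WT females, against 3.51 and 3.49 in null males and 3.49 and 3.54 in null females. The genotypes did not overlap, and all values lay under the negative control medians. The limma difference was -0.20 (SE 0.05, 95% interval -0.32 to -0.08, adjusted p = 0.0349). The call was lost with same-numbered mice as pairs (adjusted p = 0.0597), without any array other than female WT 2 (0.0604 to 0.11), and with the muscle covariate, which also took the difference to -0.12 (adjusted p = 0.748).

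Skap1, a gene of an adaptor that links the receptor to integrins, gave 3.64 and 3.63 in WT males, 3.67 and 3.55 in WT females, 3.78 and 3.81 in null males and 3.73 and 3.72 in null females. The arrays did not overlap, but the limma difference of 0.14 (SE 0.05) was not called (adjusted p = 0.118). Zap70 and Lat, the kinase and adaptor at the centre of receptor signalling, differed by 0.03 and 0.003. Their 95% intervals were -0.10 to 0.16 and -0.15 to 0.16. Ubash3a, a phosphatase family gene that dampens the receptor, differed by 0.12 and Sit1, a transmembrane adaptor gene, by 0.03. Sh2d1a, which encodes the SLAM adaptor SAP, and Themis, a gene of thymic selection, differed by 0.05 and 0.02. None of these 6 passed the threshold in limma, with adjusted p from 0.352 to 0.989.

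The cytotoxic granule and NK receptor genes gave 0 calls among 6 in limma, where 13.0% of all genes were called. An unadjusted p under 0.05 was found in 2 of the 6, against 8158 of all 30701 genes. Of the 6, 5 had a difference above 0 (83.3%, against 54.7% of all genes), and every array but those of Nkg7 lay under the control medians. Klrk1, which encodes the activating receptor NKG2D, gave 3.02 and 3.16 in WT males and 3.13 and 3.14 in WT females, against 3.38 and 3.22 in null males and 3.40 and 3.25 in null females. The genotypes did not overlap, and the limma difference of 0.20 (SE 0.06, 95% interval 0.06 to 0.34) missed the threshold (adjusted p = 0.0681). Its neighbour Klrd1, the gene of CD94, gave 2.98 and 3.04 in WT males, 3.16 and 2.81 in WT females, 3.27 and 3.11 in null males and 3.07 and 3.46 in null females. Here the genotypes overlapped, and the difference of 0.23 (SE 0.10) was not called (limma adjusted p = 0.194).

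None of the 4 granule genes was called. Gzma and Gzmb, the granzyme A and B genes, differed by 0.09 and 0.16, and Prf1, the perforin gene, by -0.17 (95% interval -0.34 to -0.01, limma adjusted p = 0.165). Nkg7, which encodes a granule membrane protein, differed by 0.13 and was not called (limma adjusted p = 0.289). Over the 26 genes of the list that were not called, the 95% intervals of the differences reached from -0.34 (Prf1) to 0.46 (Klrd1), so changes of 1 log2 unit in these probe set signals lay outside all of them. This holds for signals and not for transcript amounts. On no array did 16 of the 31 genes lie above the control median, and there the size of a difference is inexact. Of the 31 genes, 7 (22.6%) had arrays that did not overlap between genotypes, 5 with null higher (Il7r, Bcl11b, Cd3g, Skap1 and Klrk1) and 2 with null lower (Rora and Txk). The share over all genes was 18.9%, 10.1% with null higher and 8.77% with null lower.

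**Figure D3:**
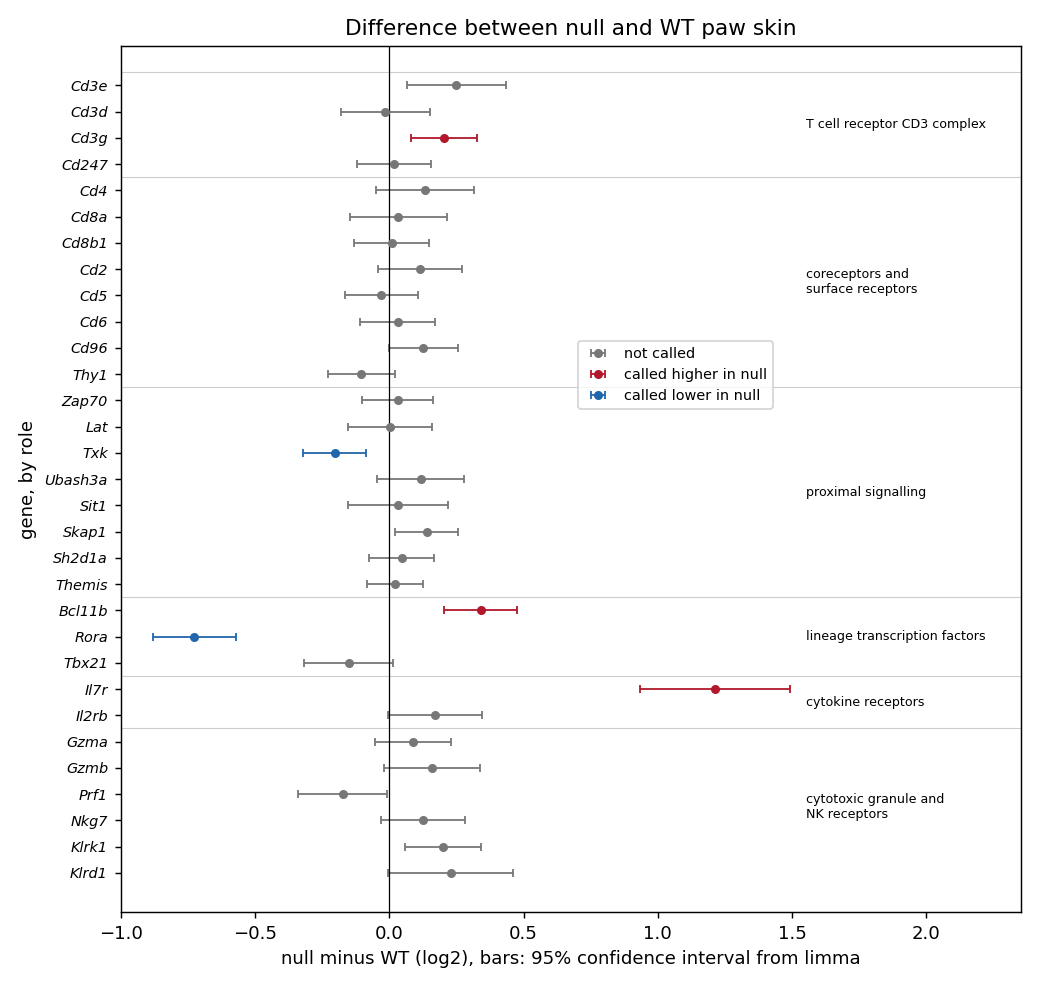
Null minus WT difference (log2, horizontal axis) of the 31 measured genes grouped by role, with 95% confidence intervals from limma as bars, genes called higher in red, called lower in blue and not called in grey. Il7r at 1.21 and Rora at -0.73 stand apart, Bcl11b follows at 0.34, and all others lie between -0.20 and 0.25.

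Of the 31 differences, 24 were above 0 (77.4%, against 54.7% of all genes). That count moved with single arrays. Female WT 2 was the lowest of the 4 WT arrays in 21 of 31 genes (38.4% of all genes), and without it 18 of 31 differences were above 0 (49.9% of all genes). Female null 1 was the highest null array in 17 of 31 genes (25.7% of all genes), and without it the count was 21 (50.9% of all genes). Leaving out any other array gave counts of 22 to 25 (53.6% to 57.8% of all genes). The negative control median of female WT 2, 4.46, was the highest of the 8 arrays, and the part of that array in the count was not tested further.

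The genotype effect of the 31 genes was also compared between the sexes. Of the 31, 0 were called by limma's interaction, where 0.00651% of all genes were. An unadjusted interaction p under 0.05 was found in 1 of the 31, against 1307 of all 30701 genes. That gene was Gzmb, with 3.33 and 3.31 in WT males, 3.26 and 3.35 in null males, 3.27 and 3.09 in WT females and 3.50 and 3.52 in null females. Its difference was -0.01 in males and 0.33 in females, a male minus female effect of -0.34 (95% interval -0.61 to -0.07, limma adjusted p = 0.974). The next smallest p belonged to Cd3d, with -0.13 in males and 0.10 in females (limma adjusted p = 0.974). With 2 mice per sex and genotype, these intervals are wide.

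Genes of the same pathways outside the list were counted next. Of 22 measured genes of T cell receptor signalling, 2 were called higher and 4 lower in limma (27.3%, against 13.0% of all genes), with a median of -0.01. Ptpn22 (phosphatase) and Malt1 (paracaspase) rose by 0.54 and 0.42, and Prkcq (kinase PKC-theta, also present in skeletal muscle), Cblb (ubiquitin ligase) and Nfatc2 (transcription factor) fell by 0.80, 0.44 and 0.33. With the muscle covariate none of these 5 genes was called, and the difference was 0.96 for Ptpn22, 0.35 for Malt1, -0.18 for Prkcq, -0.59 for Cblb and -0.09 for Nfatc2. The call of Ptpn22 was also lost when any of 5 arrays was left out, WT males 1 and 2, WT female 2, null male 2 and null female 1 (adjusted p up to 0.0681). That of Nfatc2 was lost without WT male 1 or 2, null male 2 or null female 1 (up to 0.0822), and that of Cblb without any array except the first WT mouse of either sex (up to 0.122).

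Of 28 further cytotoxic and NK cell genes, 3 were called higher and 1 lower (14.3%, against 13.0% of all genes), with a median of 0.03. The largest rise was that of Stx11, a syntaxin gene of granule release that other leukocytes also express, from 5.50 to 6.04 (limma difference 0.54, adjusted p = 0.00133). Cd244a, a SLAM family receptor gene, rose by 0.28 (3.88 to 4.16, under the control medians) and the granule transport gene Rab27a by 0.22, and the integrin gene Itga2, which keratinocytes express too, fell by 0.39. Rab27a kept its call in none of the 8 fits with an array left out (adjusted p 0.0573 to 0.138), and Cd244a dropped out without WT male 1, null male 2 or null female 1 (up to 0.0561). With the muscle covariate none of these 4 genes was called, and the difference was 0.48 for Stx11, 0.14 for Cd244a, 0.16 for Rab27a and -0.42 for Itga2. The defining NK genes Ncr1 (3.21 in WT, 3.24 in null) and Klrb1c (2.89 and 2.96) lay under the control medians in both genotypes, uncalled.

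Of 27 gamma-delta T cell and innate lymphoid genes, 16 were measured, and the constant region genes of the T cell receptor were not among them. Of these, 3 were called higher and 2 lower (31.2%, against 13.0% of all genes). Il2ra, which encodes CD25, rose from 3.61 to 4.32 (limma difference 0.71, SE 0.08, adjusted p = 0.000936), and Itgae, which encodes the epithelial retention integrin CD103, from 4.29 to 4.87 (0.58, SE 0.06, adjusted p = 0.000597). The WT mean of Il2ra lay under the control medians of all arrays (4.26 to 4.46). Its null mean and the WT mean of Itgae lay within the range of those medians. Both genes were called without any 1 array and, with the muscle covariate, differed by 0.75 and 0.52 without a call (adjusted p = 0.0785 and 0.0947). Il23r, a subunit gene of the interleukin-23 receptor, rose by 0.45, from 3.29 to 3.74 and so under the control medians in both genotypes, and the transcription factor gene Zbtb16 and the receptor gene Il17rb fell by 0.85 and 0.27. Il23r dropped out without WT male 1, null male 2 or null female 1 (adjusted p up to 0.0609), Zbtb16 without any array except WT female 1 and null female 2 (up to 0.0974), and Il17rb without any array except WT male 1 and null female 2 (up to 0.102). With the muscle covariate none of these 3 was called, and the difference was 0.04 for Il23r, -1.31 for Zbtb16 and -0.26 for Il17rb. The cytokine genes Il17a (3.82 and 3.79), Il17f (3.11 and 3.15) and Il22 (3.31 and 3.37) stayed under the control medians, uncalled.

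Markers of other leukocytes moved beside these genes. The mean of 12 pan-leukocyte genes was 5.50 in female WT 1, at most 5.04 in the other WT arrays and 5.26 to 5.56 in null arrays, with 4 of 12 called higher and 0 lower. Their defining gene Ptprc, which encodes CD45 and also stands in the T cell receptor signalling list, differed by 0.64 and was not called (limma adjusted p = 0.0541). The 11 Langerhans and dendritic cell genes averaged 4.75 to 4.86 in WT and 5.01 to 5.20 in null arrays, with 5 called higher, and the 12 monocyte and macrophage genes 6.08 to 6.58 and 5.54 to 6.18, with 3 called lower. Several of these calls hung on single arrays. Of the 8 fits with an array left out, Cd207 and Flt3 were called in 1, H2-Aa in 4, C1qc in 1, Mertk in 2 and Cd163 in 7. In the pan-leukocyte list Lcp1 was called in 2 and Arhgdib in 3, while Cd52 and Cytip were called in all 8. Dendritic cells can express Il7r, macrophages Cd4, and monocytes Stx11, and the part of these cells in the values was not tested. The 9 B cell genes averaged 4.00 to 4.22 and 4.08 to 4.21, with 1 called higher and 0 lower. The called gene was Blnk, an adaptor gene of the B cell receptor, which went from 7.26 to 7.78 (limma difference 0.52, adjusted p = 0.0071; 0.28 and not called with the muscle covariate), and the uncalled Ms4a1, which encodes CD20, gave 2.95 and 3.05. Among the dendritic cell genes, the integrin gene Itgax rose by 0.79 and H2-Ab1, which encodes a class II major histocompatibility chain, by 0.65 (limma adjusted p = 0.00304 and 0.0125), both called without any 1 array. With the muscle covariate they differed by 1.04 and 1.02 and were not called (adjusted p = 0.059 and 0.0681). Of the cells that can express Thy1, 9 fibroblast genes averaged 8.07 to 8.50 in WT and 7.86 to 8.35 in null arrays (1 called higher, 3 lower), and 7 Schwann cell and nerve genes 6.06 to 6.28 and 6.01 to 6.09 (0 and 2). Of 9 endothelial genes 3 were called higher and 0 lower (33.3%, against 13.0% of all genes). Their list means overlapped, with 5.85 to 6.22 in WT and 6.14 to 6.30 in null arrays. Of the 8 fits with an array left out, Pecam1, Dcn and Dpt were called in 2, Ncam1 in 3 and Vwf in 7. Flt1, Pdpn, Mfap5 and Pmp22 were called in all 8. With the muscle covariate none of these fibroblast, Schwann cell and endothelial genes was called.

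**Figure D4:**
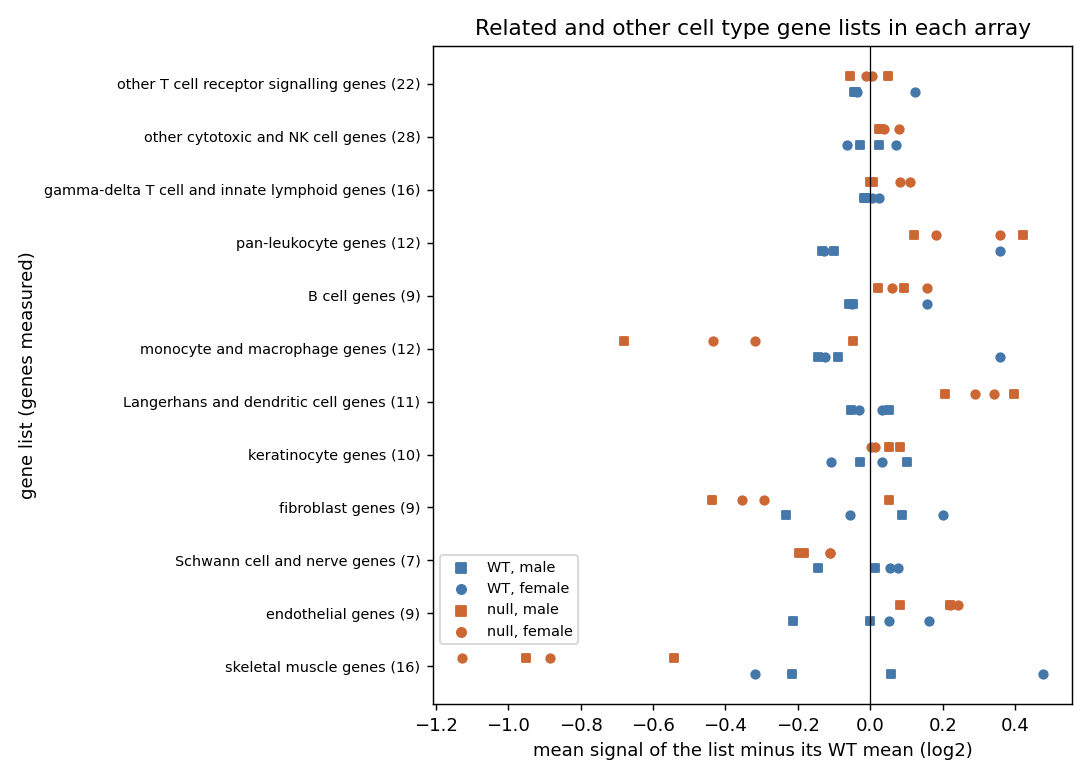
Mean signal of each related or other cell type list on each array, minus its WT mean (log2, horizontal axis), with the number of measured genes in brackets, WT in blue and null in orange, males as squares and females as circles. Langerhans and dendritic cell genes separate the genotypes upward and skeletal muscle genes downward, and the 3 lists of further T cell, NK and innate lymphoid genes lie near 0; in the pan-leukocyte list female WT 1 lies among the null arrays.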

How the data were processed

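RNA from 8 paw skin samples was measured on single-colour Affymetrix arrays after biotin labelling, per the labels' protocols. The authors deposited log2 values, 1 per probe set and array, made with Partek and RMA per the submitters' processing notes; their versions and settings, the genome build and the annotation were not stated in those notes or labels. The table holds 72688 probe sets, 6732 of them controls, which were dropped; 31258 of the others carried exactly 1 gene after symbols were updated through a RefSeq table of assembly GRCm38.p6. The brightest probe set stood for each of 30701 genes. No filter on dim genes was applied, and the arrays carry no read depth: their number limits the precision.

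Differences were fitted with limma 3.58.1 under R 4.3.3, by lmFit with sex as covariate (5 residual degrees of freedom) and eBayes with trend, and the sex difference on the 4 group means. The script was tested on simulated data. Python 3.11.15 with pandas 2.3.3 and matplotlib 3.10.9 prepared tables and plots. Same-numbered mice of 1 sex deviated together across genes (correlation 0.316 in males and 0.115 in females, both numbers of a sex sharing 1 value), over the limit of 0.1, so a fit with them as pairs was an alternative; the labels do not say what a shared number means. The mice are littermates of unstated litters.

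The members, gene lists and roles were chosen with earlier results of these data known. Per-array values are given for each called gene, the CD3 chains and the 2 largest differences per role; of other lists, up to 3 called rises and 3 called falls, or otherwise the 2 genes with the smallest p; lists of other cell types are mostly given by counts. Genes named beyond that rule were chosen after their values were seen: Tbx21 and Gzmb by array, and the uncalled genes of other lists (Ptprc, Ncr1, Klrb1c, Il17a, Il17f, Il22, Ms4a1). The same holds for the called Arhgdib, Cd207 and Flt3, named for their calls with an array left out.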

Additional observations from a re-analysis of the deposited data

Results flagged for a closer look

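Single arrays stood apart from the other 3 of their genotype in 3 of 62 combinations of gene and genotype, by Dixon's 95% criterion for 4 values; chance gives about 1 in 20. Cd3e was 4.09 in male null 1, against 4.44 to 4.45 in the other null arrays. Lat was 4.84 in male WT 2, against 4.92 to 4.93. Il7r was 4.28 in male WT 1, against 4.76 to 4.84. In Cd247 both null arrays lay under both WT arrays in males and above both in females, a male minus female effect of -0.144 that limma's interaction did not call (adjusted p = 0.974).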

How the results depend on the processing

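The count called higher (3) was 2 to 4 with 1 array left out, 2 with the replicate block or without dim genes, and 0 with the muscle covariate. The count called lower (2) was 1 to 2 with 1 array left out, and 1 with the replicate block, without dim genes or with the muscle covariate. Without dim genes 14 of the 31 genes were left to test, which took out Cd3g and Txk. With 1 array left out Cd3d ran from -0.0824 to 0.0117 and Cd247 from -0.0252 to 0.0445, turning sign uncalled. Genes above the negative controls on all arrays numbered 9 at the median and 2 at the 95th percentile, and those above on no array 16 and 29. Most of all measured genes likewise were not above the 95th percentile on every array. Il7r and Bcl11b were called in 16 of 17 alternatives and Rora in all 17; Cd3g and Txk in 7 of 16 each. The replicate block changed no call of the other members named by array. Both counts stayed at 3 and 2, with the same genes called, under median centring, a second quantile normalization, a robust prior, the mean of probe sets, and fits without sex or without the trend. The quantile normalization took the share of all genes above 0 from 54.7% to 48.3%, with 23 of the 31 genes above 0.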

Other observations

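Partners and ligands of the receptor chains in the list were looked up after the Il7r values were seen. Of these, Il15, the ligand gene of receptors with the Il2rb chain, was called lower. Its signal was 4.68 and 4.40 in WT males and 4.79 and 4.74 in WT females, and 4.30 and 4.12 in null males and 4.23 and 4.29 in null females. The genotypes did not overlap (limma difference -0.42, SE 0.08, adjusted p = 0.0106), and all null values lay under the control medians of their arrays. Il15ra, its receptor gene, differed by -0.07 (adjusted p = 0.554). Crlf2, which pairs with the Il7r product in the receptor for thymic stromal lymphopoietin, gave 5.73 ± 0.18 in WT and 5.85 ± 0.05 in null skin (SD, n = 4; limma adjusted p = 0.474). The ligand genes Il7 (3.63 and 3.48) and Tslp (2.96 and 2.92) lay under the control medians in both genotypes, uncalled.

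Relatives of both called transcription factor genes were looked up in the same way. Rorb, a relative of Rora, gave 4.48 ± 0.13 in WT and 4.08 ± 0.19 in null skin and was called lower (limma difference -0.39, SE 0.08, adjusted p = 0.0145). Its null values lay under the control medians of their arrays except in female null 1, at 4.32 against 4.30. Fits with an array left out are not given for Rorb or Il15. Bcl11a, the relative of Bcl11b, gave 6.55 ± 0.17 and 6.51 ± 0.14 and was not called (adjusted p = 0.877).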
